A study of Lathyrus oleraceus with 9 samples.

Results

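The 2 probes described here, PSOLI02696 and PSOLI01330, are those of the 5246 probes of a pea oligonucleotide array that the study's gene table names Patellin-5. They were chosen by their mean log2 ratios, since the former was up-regulated and the latter down-regulated in aged seeds, so that these ratios are given as a description, without a test. Whole seeds of pea (Pisum sativum L. cv Alaska Early) were equilibrated at 20°C over a solution of 60% relative humidity until their moisture content was stable at 12%, which made the non-aged controls. Such seeds were then aged at 50°C in sealed bottles for 8, 12 or 15 d. Each replicate was a pool of 20 seeds. RNA of aged and of non-aged seeds was hybridised together in 2 colours, with 3 arrays for each ageing time, 9 in all, and with the dyes exchanged on replicate 2. Aged and non-aged seeds were of the same cultivar and had the same equilibration.

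Patellins are membrane trafficking proteins of plants. They carry a Sec14-like lipid-binding domain, which binds phosphoinositides, and a GOLD domain, which is also found in proteins of Golgi transport. In Arabidopsis the first patellin described was found at the growing cell plate, the new membrane that divides a plant cell at cytokinesis. Their known part is the binding of lipids and not their synthesis.

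Each value was the log2 of the ratio between aged and non-aged seeds for a probe on an array, positive where aged seeds were higher, and none was missing. The authors had normalized each array, and the array medians lay between 0.01 and 0.02. A ratio is thus relative to the other probes of its array and not an absolute amount. Across probes, arrays of the same ageing time correlated with Pearson's r of 0.974 to 0.984, and arrays of different ageing times with 0.934 to 0.962. The spread of the ratios widened with ageing, since the scaled median absolute deviation was 0.386 on each array of 8 d, 0.400 on each of 12 d and between 0.445 and 0.460 on those of 15 d. The files hold ratios and no level in either kind of seed, so the seed tissue could not be checked by the level of storage protein probes. In RNA of whole seeds, fewer cells of a type and less RNA per cell cannot be told apart. The study saw partial RNA degradation from 8 d onwards, and it put on arrays only RNA that it judged satisfactory. It states that decay of stored mRNA may add to the decline of transcripts. It also reads the up-regulation of other genes as new transcription, so that decay would not be the only source of change. Neither the part of RNA degradation nor that of new transcription in these ratios was tested.

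PSOLI02696 had the highest log2 ratio on the array at 15 d and was near the top from 8 d onwards. At 8 d its log2 ratios were 1.80, 1.77 and 1.82 on replicates 1, 2 and 3, with a mean of 1.80 ± 0.025 (SD, n = 3), a 3.47-fold ratio. At 12 d they were 2.10, 1.95 and 1.96, with a mean of 2.00 ± 0.084, a 4.01-fold ratio. At 15 d they were 2.32, 2.37 and 2.34, with a mean of 2.34 ± 0.025, a 5.07-fold ratio. The 3 arrays of each ageing time lay above all arrays of the earlier ones, with no overlap. The array with exchanged dyes was the lowest at 8 d and 12 d and the highest at 15 d. A dye term in the fit was 0.013 for this probe and -0.019 for PSOLI01330.

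PSOLI01330 lay below 0 on all 9 arrays, and its size was smaller. At 8 d its log2 ratios were -0.85, -0.95 and -0.96 on replicates 1, 2 and 3, with a mean of -0.92 ± 0.061 (SD, n = 3), which is 1.89-fold lower in aged seeds. At 12 d they were -0.96, -0.84 and -0.95, with a mean of -0.92 ± 0.067. The values of 8 d and 12 d overlapped and had nearly the same mean. At 15 d they were -1.19, -1.17 and -1.24, with a mean of -1.20 ± 0.036, which is 2.30-fold lower in aged seeds. All arrays of 15 d lay below all arrays of 8 d and 12 d.

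**Figure D1:**
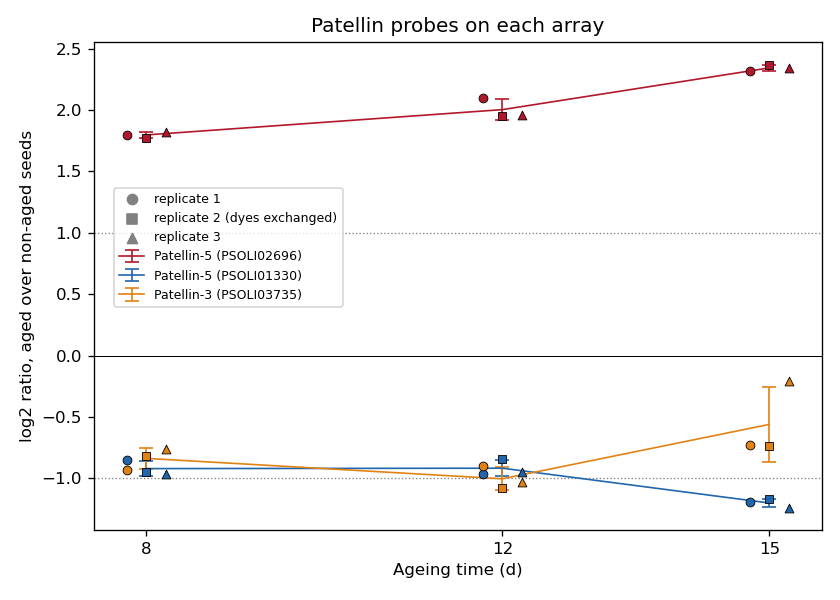
Log2 ratio, aged over non-aged (vertical axis), against ageing time in d (horizontal axis) for the 3 patellin probes, with a marker for each array, shifted sideways by replicate, and lines with bars for the mean ± SD of 3 arrays. PSOLI02696 rose from 1.80 to 2.34, PSOLI01330 lay at -0.92 at 8 d and 12 d and at -1.20 at 15 d, and at 15 d 1 array of Patellin-3 stood apart at -0.21.

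To be called, a probe needed a log2 ratio of 1 or more in size whose adjusted p in limma was under 0.05. By this rule, which the choice of the probes had used, PSOLI02696 was called up at each ageing time, where 2.52%, 3.13% and 5.64% of all probes were called up at 8, 12 and 15 d. PSOLI01330 was called down at 15 d alone, where 7.09% of all probes were called down. At 8 d and 12 d it did not reach the fold-change threshold, and 4.48% and 4.77% of all probes were called down.

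In the order of the mean log2 ratios of all probes, PSOLI02696 was number 2 from the top at 8 d, number 2 at 12 d and number 1 at 15 d. On single arrays it was number 2, 5 and 3 at 8 d, number 2, 2 and 3 at 12 d, and number 1 on each array of 15 d. At 8 d it was below the universal stress protein probe PSOLI04490, at 2.03 ± 0.05 (SD, n = 3), by 0.23, with no overlap of their arrays. The next probe below, PSOLI02456, which has no product name in the gene table, was at 1.78 ± 0.157, and its arrays overlapped with those of PSOLI02696, from which it did not differ beyond the spread. At 12 d it stood between a hypothetical protein (PSOLI01670) at 2.15 ± 0.087 and the probe of TIM50 (PSOLI01371) at 1.91 ± 0.075, and its arrays overlapped with those of both. TIM50 is a subunit of the translocase that imports proteins through the inner mitochondrial membrane. At 15 d the next probe below was PSOLI01670 at 2.02 ± 0.137, a gap of 0.33, and its highest array, 2.14, was below the lowest of PSOLI02696, 2.32.

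PSOLI01330 had no such place. From the bottom it was number 278 at 8 d, number 311 at 12 d and number 256 at 15 d, where 4.86% of the probes were lower. Its neighbours differed from it by less than 0.01, which is the step of the deposited values. At 15 d those next above were a provicilin (PSOLI02195) and elongation factor 2 (PSOLI04741), both at -1.20, and the one next below was the ribosomal protein L34 (PSOLI04648) at -1.21. Provicilin is the precursor of a storage globulin, and elongation factor 2 moves the ribosome along the messenger RNA. At 8 d the next above was a hypothetical protein (PSOLI01572) at -0.91, and the next below, both at -0.92, were ribose 5-phosphate isomerase (PSOLI04594), an enzyme of the pentose phosphate pathway, and PCPS06, which has no product name. At 12 d 3 probes were next above at -0.91, named as a glutathione S-transferase (PSOLI01032), hnRNP F (PSOLI01571) and an oleosin (PSOLI04214), and 3 next below at -0.92, an expressed protein (PSOLI00937), a subunit G of the vacuolar ATP synthase (PSOLI02383) and histone H2B.3 (PSOLI04068). None of these neighbours was separated from PSOLI01330 by more than the spread of 3 arrays.

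**Figure D2:**
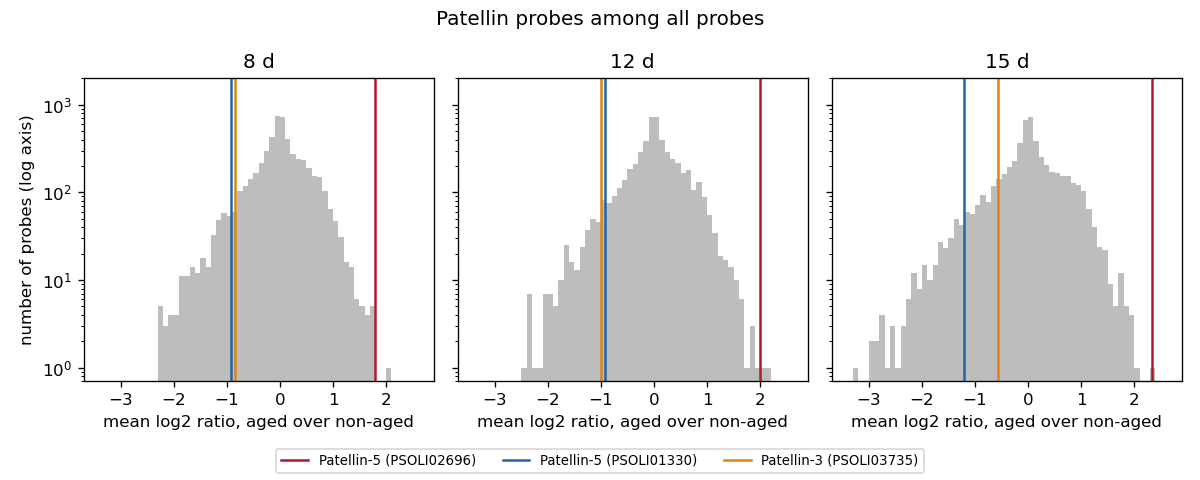
Histograms of the mean log2 ratio (horizontal axis, bins of 0.1) of all 5246 probes at 8, 12 and 15 d, with the number of probes on a log axis, and vertical lines at the patellin probes. The line of PSOLI02696 stands at the upper end at each ageing time, and that of PSOLI01330 lies within the lower flank, with 4.86% of the probes below it at 15 d.

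Changes from an ageing time to a later one were tested in limma, in a fit of all probes. They use the same arrays as the levels that chose the probes, and PSOLI02696 had been noticed as the highest at 15 d. None of these tests is thus independent evidence, least of all those of contrasts that end at 15 d. PSOLI02696 rose by 0.21 ± 0.055 (SE) on the log2 scale from 8 d to 12 d, with a limma adjusted p of 0.017, where 9.68% of all probes rose. It rose by 0.34 ± 0.055 from 12 d to 15 d, with a limma adjusted p of 0.00042, where 12.1% of all probes rose. From 8 d to 15 d it rose by 0.55 ± 0.055, or 1.46-fold, with a limma adjusted p of 2.7e-06, and was number 28 of all probes in the order of this change, where 19.8% rose. PSOLI01330 changed by 0.003 ± 0.056 (SE) from 8 d to 12 d, with a limma adjusted p of 0.98 and a 95% interval from -0.11 to 0.12, where 9.68% of all probes rose and 8.84% fell. From 12 d to 15 d it fell by 0.28 ± 0.056, with a limma adjusted p of 0.0018, where 12.1% of all probes fell. From 8 d to 15 d it also fell by 0.28 ± 0.056, with a limma adjusted p of 0.00099, where 18.2% fell. In these contrasts PSOLI02696 thus rose in both intervals, and a fall of PSOLI01330 was found in the later one. None of these calls by interval held when arrays were scaled to equal spread, as given below.

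The ratios of all probes widened over the same times. Over all probes the line of 15 d on 8 d had a slope of 1.17. Both Patellin-5 probes changed in size by a ratio of 1.30 between these times. From this line, 2.11 was given for PSOLI02696 at 15 d, and the mean was 0.24 higher. For PSOLI01330, -1.08 was given, and the mean was -1.20, a difference of -0.12. Of all probes, 17.8% lay farther from the line than PSOLI02696 and 45.3% farther than PSOLI01330. From the line of 15 d on 12 d, which had a slope of 1.14, PSOLI02696 was 0.066 higher, with 59.2% of all probes farther from it, so that most of its rise of 0.34 in this interval lay on the line. PSOLI01330 was 0.16 lower than that line gave, with 22.6% of all probes farther. When arrays were brought to equal spread, each scaled by its median absolute deviation, the rise of PSOLI02696 from 8 d to 15 d was 0.23 with a limma adjusted p of 0.0075. That from 8 d to 12 d was then 0.14, with an adjusted p of 0.088, and that from 12 d to 15 d was 0.085, with an adjusted p of 0.37, so that neither passed the test. The changes of PSOLI01330 from 12 d to 15 d and from 8 d to 15 d were then -0.16 and -0.12, with limma adjusted p-values of 0.093 and 0.15, which did not pass either. The rise of PSOLI02696 from 8 d to 12 d was also not called without replicate 1, 2 or 3, with limma adjusted p-values of 0.15, 0.074 and 0.061.

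**Figure D3:**
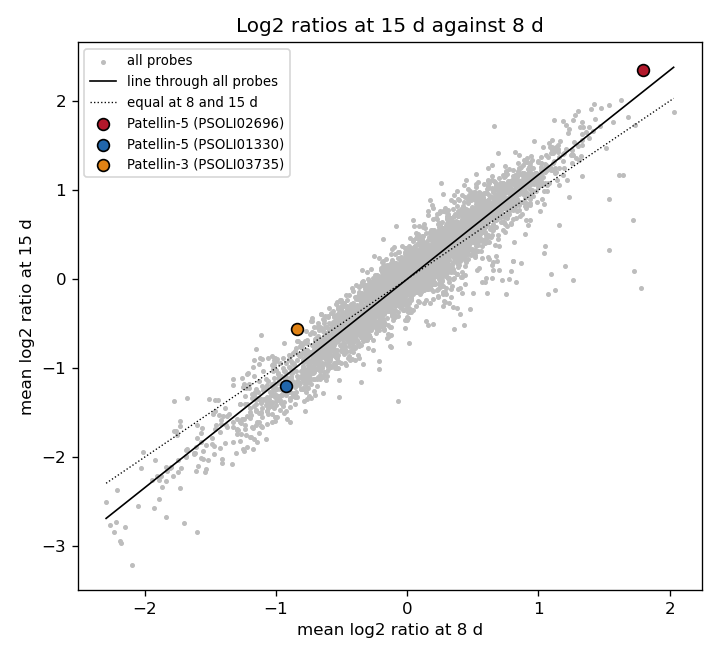
Mean log2 ratio at 15 d (vertical axis) against that at 8 d (horizontal axis) for all probes, with the line through all probes (slope 1.17, solid), the line of equal values (dotted) and the 3 patellin probes. PSOLI02696 lies 0.24 above the solid line, PSOLI01330 0.12 below it and Patellin-3 0.42 above it.

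Since both probes lie on each array, their difference was also taken within arrays. The log2 ratio of PSOLI02696 minus that of PSOLI01330 was 2.65, 2.72 and 2.78 at 8 d on replicates 1, 2 and 3, with a mean of 2.72 ± 0.065 (SD, n = 3). At 12 d it was 3.06, 2.79 and 2.91, with a mean of 2.92 ± 0.135, and at 15 d it was 3.51, 3.54 and 3.58, with a mean of 3.54 ± 0.035. That the difference lay above 0 followed from the choice of the probes, and since their levels at 15 d were part of that choice, its growth is a description as well. It was 0.83 larger at 15 d than at 8 d, 0.62 larger at 15 d than at 12 d and 0.20 larger at 12 d than at 8 d, and the arrays of different ageing times did not overlap. After the scaling of arrays to equal spread the difference was 2.90, 3.00 and 3.25 at 8, 12 and 15 d.

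The other patellin probe of the gene table, Patellin-3 (PSOLI03735), belongs to the same orthologous group in the gene table and was lower in aged seeds on all 9 arrays. Its log2 ratios were -0.93, -0.82 and -0.76 at 8 d on replicates 1, 2 and 3, with a mean of -0.84 ± 0.086 (SD, n = 3). At 12 d they were -0.90, -1.08 and -1.03, with a mean of -1.0 ± 0.093, and at 15 d they were -0.73, -0.74 and -0.21, with a mean of -0.56 ± 0.303. The array of replicate 3 at 15 d stood apart from the other two, and 0.0572% of all probes had a larger SD at that time. The call of Patellin-3 as down-regulated at 12 d lay at the threshold and was lost without replicate 2 (-0.97) and without replicate 3 (-0.99).

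Between 12 d and 15 d, Patellin-3 moved towards 0 while PSOLI01330 moved away from it. The change of Patellin-3 was 0.44 ± 0.108 (SE), with a limma adjusted p of 0.0078, where 12.1% of all probes rose. Without replicate 3 it was 0.26, with a limma adjusted p of 0.047. From 8 d to 15 d Patellin-3 changed by 0.28 ± 0.108, which did not pass the test, with a limma adjusted p of 0.056. It passed with the replicate number as a block, after the scaling named above and with a trend in the prior variance, at limma adjusted p-values of 0.030, 0.012 and 0.046. It did not pass with a dye term or median centring, at limma adjusted p-values of 0.052 and 0.064. Nor did it pass without replicate 1, 2 or 3, at limma adjusted p-values of 0.081, 0.053 and 0.20. Without replicate 3, which held the array that stood apart, the change was 0.14. At 15 d, the 3 probes thus stood at 2.34, -1.20 and -0.56, and the arrays of no probe overlapped with those of another. At 8 d and 12 d, Patellin-3 and PSOLI01330 overlapped.

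In the gene table, the Patellin-5 probes share not only a product name but also an accession number of the matched protein, as do the probes of 39 other accession numbers. The gene table holds only called probes, of both directions, as 6.39% of all probes were called up and 7.45% down at any time point. Probes of opposite sign thus follow in part from that choice. Of the 40 accession numbers with more than 1 probe, which hold 85 probes, 19 had probes of opposite sign at 15 d, and 17 had a log2 ratio of 1 or more in size on each side at any ageing time. By the difference at 15 d between the highest and the lowest probe, Patellin-5 was number 3, at 3.54, and it was also number 3 at 8 d. Ahead of it were elongation factor 1-alpha, which brings aminoacyl-tRNA to the ribosome, with PSOLI03999 at 1.06 ± 0.097 (SD, n = 3) and PSOLI01474 at -3.21 ± 0.023, and an initiation factor 4A-like RNA helicase, with PSOLI02308 at 1.21 ± 0.040 and PSOLI00629 at -2.55 ± 0.042. Next were a hypothetical protein (PSOLI02499) at 1.08 ± 0.040, whose partner PSOLI00977 was at -2.16 ± 0.023, and NAC transcription factors, with PSOLI01141 at 1.20 ± 0.012 and PSOLI00679 at -1.95 ± 0.208.

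Patellin-5 differed from those named above in which side was larger, a trait that other pairs shared. Its up-regulated probe was at 2.34, the highest of the 19 accession numbers. The next was at 1.37, and the median of the higher probes was 1.16. This place is no separate finding, since PSOLI02696 was the highest of all probes at the longest ageing time. That its upper side was the larger follows in part from the same choice. The down-regulated probe of Patellin-5, at -1.20, had 12 of the other lower probes below it. The median of the lower probes, its own included, was -1.48. In 5 of the 19 accession numbers, Patellin-5 among them, the higher probe was larger in size than the lower one. The universal stress protein probes, which share a product name only, were alike in this, with PSOLI04490 at 1.88 and PSOLI04288 at -1.43 at 15 d. Their difference at 8 d was 3.20, against 2.72 for Patellin-5. This pair was named after its values were seen. The gene table holds 717 probes, each of which the study had called as changed, so a partner that did not change would not be seen here. The same choice keeps the probes of the 19 accession numbers of opposite sign well apart, with differences of 1.93 to 4.28. It sets no upper limit for the other 21, whose differences were up to 0.90. Whether the probes of an accession number detect 1 transcript or several was not tested.

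**Figure D4:**
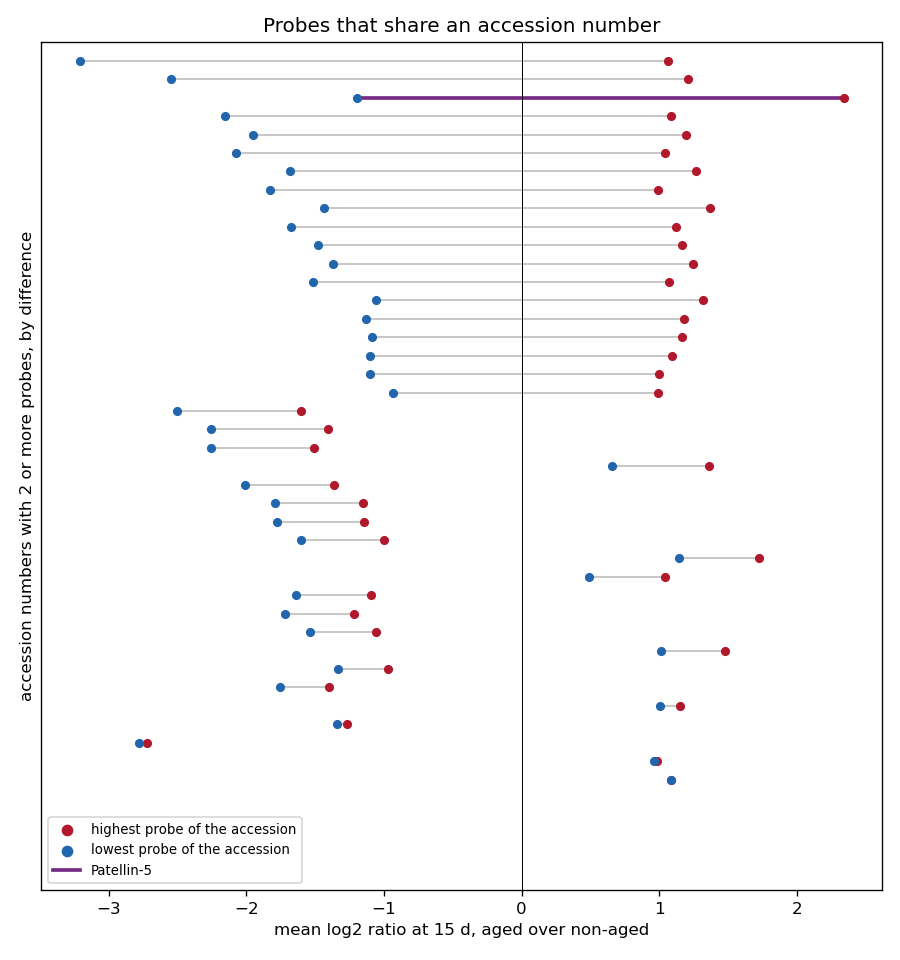
Mean log2 ratio at 15 d (horizontal axis) of the highest and the lowest probe of each of the 40 accession numbers with 2 or more probes in the gene table, 1 line per accession number, ordered by their difference. Patellin-5 is number 3 from the top, with its probes at 2.34 and -1.20. Its higher probe lies farthest to the right, as the highest of all probes at this time must.

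The probes most like each member were sought by Euclidean distance over the 9 arrays, which compares the log2 ratios themselves, and by Pearson's r over the 9 arrays, which compares the shape of the change. All arrays of an ageing time share it, and all carry the comparison with non-aged seeds, so that r is given as a description. Nearest to PSOLI02696 was PSOLI01670, at a distance of 0.74, followed by a hypothetical protein (PSOLI01569) at 1.06, Legumin J (PSOLI04998) at 1.14, the universal stress protein PSOLI04490 at 1.15 and a hypothetical protein (PSOLI00055) at 1.18. These were other probes with high ratios and not always of the same shape, since Legumin J, a storage protein precursor, had an r of -0.15 and PSOLI04490 an r of -0.23. By r, the most like was a probe of the copper-binding protein family (PSOLI02184), at 0.995, with means of 1.33, 1.49 and 1.76 at 8, 12 and 15 d. It was followed by PSOLI04988 at 0.992, a hypothetical protein (PSOLI00172) at 0.983, PSOLI04328 at 0.982 and PSOLI01692 at 0.980, of which 3 have no product name and all 4 lay between 0.36 and 1.07. No probe was among the 5 most like PSOLI02696 by both measures, and 196 probes had an r above 0.9.

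PSOLI01330 had closer neighbours by distance, since many more probes lie at its level than at the top of the order. By r it had fewer close probes, with 112 above 0.9 against 196 for PSOLI02696. Nearest was NAM8 (PSOLI04276), named after a splicing protein of yeast, at a distance of 0.126, with means of -0.93, -0.97 and -1.23 at 8, 12 and 15 d. It was followed by a hypothetical protein (PSOLI04070) at 0.175, the ribosomal proteins S6 (PSOLI04476) at 0.187 and L13 (PSOLI02384) at 0.195, and a 9-cis-epoxycarotenoid dioxygenase (PSOLI04123), an enzyme of abscisic acid synthesis, at 0.205. All 5 had an r of at least 0.903 with it. By r, the most like was the chlorophyll-binding protein LHCA5 (PSOLI04428) at 0.986, followed by PSOLI05215 at 0.983, NAM8 at 0.982, PSOLI04373 at 0.971 and PSOLI04886 at 0.962. Those without a product name among these had means between -0.61 and 0.39, and NAM8 was the probe that both measures held. Between the Patellin-5 probes themselves, r was -0.88 over the 9 arrays.

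Patellins stand between lipid binding, membrane trafficking and cell division, and the gene table places the patellin probes in the category of lipid transport and metabolism. Since the table holds only probes that the study called on these arrays, the counts below describe its categories. They are no independent evidence of a direction or of a change from 8 d to 15 d. Of the 11 probes of lipid transport and metabolism, 3 were called up and 8 down at any time point, where 6.39% and 7.45% of all probes were called. Their median log2 ratio was -0.97, -1.0 and -0.96 at 8, 12 and 15 d, and that of all probes 0.01, 0.01 and 0.02. PSOLI02696 had the largest ratio in size among them at each ageing time, and the next was an expressed protein (PSOLI00557) at -2.21 ± 0.072 (SD, n = 3) at 15 d. A hypothetical protein (PSOLI00086) was at -1.34 ± 0.006 and an epoxide hydrolase (PSOLI00713) at -1.23 ± 0.042. The others called up were a long-chain acyl-CoA synthetase (PSOLI01864), which activates fatty acids, at 1.10 ± 0.055, and an alkaline phytoceramidase (PSOLI01725), which splits a sphingolipid, at 1.07 ± 0.058. Between 8 d and 15 d, 3 of the 11 rose and 3 fell, where 19.8% and 18.2% of all probes did.

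In the category of intracellular trafficking, 14 of 16 probes were called down and 2 up at any time point, where 7.45% and 6.39% of all probes were, and the median log2 ratios of 8, 12 and 15 d were -0.97, -1.10 and -1.36. The lowest at 15 d was a coatomer subunit epsilon (PSOLI01936), part of the coat of vesicles that return from the Golgi, at -1.66 ± 0.11 (SD, n = 3). It was followed by YIPF5 (PSOLI01563), a Golgi membrane protein, at -1.60 ± 0.075, ADP-ribosylation factor 2 (PSOLI04253), a GTPase that recruits vesicle coats, at -1.60 ± 0.017, and a transmembrane 9 superfamily protein (PSOLI00864) at -1.42 ± 0.046. PSOLI01330 had the direction of these 14 probes and PSOLI02696 that of the other two, in a table that holds only called probes. A second probe of ADP-ribosylation factor 2 (PSOLI02709), which has another accession number, was at 1.03 ± 0.006, so that this product name also had probes on both sides. It was named after its values were seen. Of the 16 probes, 12 fell from 8 d to 15 d in the limma contrast and 1 rose, where 18.2% and 19.8% of all probes did. However, 13 of the 16 were called down at 15 d, and the ratios of all probes widened with ageing. Falls of such probes thus follow in part from the choice, and whether they went beyond it was not tested.

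The category of cell cycle control held 3 probes. Cullin-1 (PSOLI00321), a scaffold of ubiquitin ligases, was called up, at 1.48 ± 0.056 (SD, n = 3) at 15 d, whereas the translationally controlled tumour protein (PSOLI04617) at -1.48 ± 0.046 and a Mps one binder kinase activator (PSOLI01607) at -1.35 ± 0.051 were called down. In the cytoskeleton category, 11 of 14 probes were called down and 3 up at any time point, where 7.45% and 6.39% of all probes were, with medians of -1.12, -1.11 and -1.36 at 8, 12 and 15 d. The largest in size at 15 d were tubulin beta-1 (PSOLI01512) at -2.26 ± 0.204, actin-7 (PSOLI04417) at -2.11 ± 0.035, an actin-depolymerizing factor (PSOLI05156) at -1.76 ± 0.042 and actin-66 (PSOLI00918) at -1.74 ± 0.006. From 8 d to 15 d, 8 of the 14 fell and 2 rose, where 18.2% and 19.8% of all probes did. Here 11 of the 14 were called down at 15 d, so that these falls also follow in part from the choice.

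**Figure D5:**
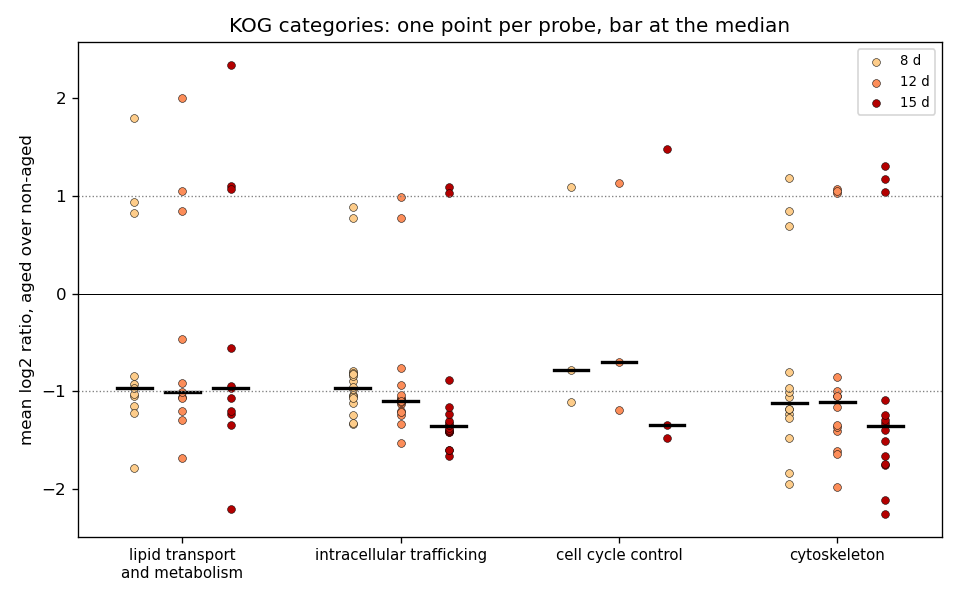
Mean log2 ratio, aged over non-aged (vertical axis), for the probes of 4 categories of the gene table at 8, 12 and 15 d, with a point for each probe and a bar at the median. PSOLI02696 is the highest point of all 4 categories at each ageing time, at 1.80, 2.00 and 2.34, and the medians lie below 0. The place of PSOLI02696 follows largely from its rank at or near the top of all probes.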

How the data were processed

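The deposited values were log2 ratios, 1 per probe and array, made by the authors with limma by background correction, print-tip loess normalization within each 2-colour array and scaling between arrays by the median absolute value. Each probe was spotted 3 times per array, and how the spots were joined is not given in the sources used here. The ratio is aged over non-aged, as the study's gene table defines it: at 8, 12 and 15 d the sign of the mean was that of the table for 717, 717 and 716 of its 717 probes. No probe sequences or spot intensities were analysed here, and 0 of the 549 accession numbers of the table matched the reference annotation.

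All 9 arrays were fitted in limma 3.58.1 under R 4.3.3 with a mean per ageing time (residual degrees of freedom 6, prior 9.165). Contrasts were tested on 2 sides with Benjamini-Hochberg adjustment over 5246 probes. Other values came from Python 3.11.15, pandas 2.3.3, numpy 2.4.6 and SciPy 1.17.1, and figures from matplotlib 3.10.9. The fit was tested on simulated data. The 4 categories were taken from the gene table. Named are the members, other patellin probes, their neighbours in rank, the 5 most like by each measure, the 4 largest at 15 d per category and the 5 accession numbers with the largest difference, and a few probes marked where they occur or that complete a count. The members and lists were chosen with earlier results of these data known. Alternatives were median centring, scaling by the median absolute deviation, a dye term, a replicate block, a variance trend, other thresholds and leaving out each replicate.

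Replicates were independent pools of seeds per the labels. No pair of arrays was identical. It is not given in the sources used here whether ageing times shared control RNA. Precision is limited by the 3 arrays per mean, and p-values measure only the spread between these arrays.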

Additional observations from a re-analysis of the deposited data

Results flagged for a closer look

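By limma contrasts of all 9 arrays adjusted over all probes, each patellin probe differed between at least 1 pair of ageing times. The arrays are those whose levels chose the Patellin-5 probes, and PSOLI02696 had been noticed as the highest at 15 d. No contrast of these 2 probes is thus independent evidence, least of all those that end at 15 d. For PSOLI02696 the rise was 0.21 from 8 d to 12 d, 0.34 in the following interval to 15 d, and 0.55 over the whole, with limma adjusted p-values of 0.017, 0.00042 and 2.7e-06, and all 3 later arrays lay above all 3 earlier ones each time. With arrays scaled to equal spread, the first 2 of these did not pass, with limma adjusted p-values of 0.088 and 0.37. For PSOLI01330 the difference was -0.28 at 15 d against 12 d and also -0.28 against 8 d, with limma adjusted p-values of 0.0018 and 0.00099, and all 3 arrays of 15 d were lower. After the same scaling neither passed, with limma adjusted p-values of 0.093 and 0.15. For Patellin-3 (PSOLI03735) it was 0.44 between 15 d and 12 d, with a limma adjusted p of 0.0078, and 1 of the 3 arrays of 15 d held the highest value, -0.21. Without that array's replicate it was 0.26, with a limma adjusted p of 0.047.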

How the results depend on the processing

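With each array scaled by its median absolute deviation, PSOLI02696 was 1.92 at 8 d and 2.15 at 15 d, PSOLI01330 was -0.98 and -1.10, and their difference within arrays was 2.90 and 3.25. The changes of PSOLI02696 from 8 d to 12 d (0.14) and from 12 d to 15 d (0.085), and those of PSOLI01330 from 12 d to 15 d (-0.16) and from 8 d to 15 d (-0.12), no longer passed the test. Without 1 replicate, the change of PSOLI02696 from 8 d to 12 d was between 0.16 and 0.24 and did not pass, which leaves fewer arrays, and that of PSOLI01330 was between -0.05 and 0.06. Median centring, a dye term and a trend in the prior variance changed none of these calls. In the order of all probes, PSOLI02696 was number 2 or 3 at 8 d, 2 at 12 d and 1 at 15 d under every alternative run. With a log2 ratio of at least 1.5, 1 probe of the 4 categories was called up and 10 down. At the main threshold 9 and 35 were, where 6.39% and 7.45% of all probes were called. The categories hold only probes that the study had called, so that each was called at the main threshold followed from that choice. The share of all probes at 1.5 is not given here.

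The replicate numbers did not pair the arrays: deviations of same-numbered arrays correlated at between -0.01 and 0.06. With the replicate block, the changes of PSOLI02696 were 0.21, 0.34 and 0.55 and those of PSOLI01330 were 0.003, -0.28 and -0.28, on the same side of the threshold.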
